A study of Brassica rapa subsp. pekinensis with 2 samples.

Results

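Of the 168 circular RNAs (circRNAs) listed for Chinese cabbage anthers and vegetative organs, the 164 typed as exonic are described here, that is, every row whose circle is built of exons rather than of an intron. They came from 161 host genes. The plants were of the double haploid line ‘FT’ of Brassica rapa, a line obtained from isolated microspores. The anther library (‘Ant’) was made from anthers of mixed developmental stages taken from buds of flowering plants. The ‘Mix’ library was made from whole seedlings with 4 true leaves, washed and taken with root, stem and leaf together. The sample records state vernalization at 4 °C for 20 days for both, whereas the methods state it only for the plants that gave ‘Ant’. Organ, plant age and possibly vernalization therefore cannot be told apart. There was 1 pooled library per group, so no difference below has a replicate check in the sequencing and no test between the groups was made.

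A circRNA forms when a downstream 5′ splice site is joined backwards to an upstream 3′ splice site, so that 1 or more exons close into a ring without free ends. The joint, read as a back-spliced junction, is the only stretch that separates the circle from the linear mRNA of the same host gene. Exonic circRNAs have been described in many plants and animals, and in animals long flanking introns with inverted repeats are a known feature of their hosts. The comparison of structure and hosts addressed which genes and exons gave circles in anthers and in vegetative organs.

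Circles were called from 1 back-spliced junction read, and most rested on few. The columns of the deposited circRNA table were used as labelled, with more circles in ‘Mix’. The text of the study gives the larger number of identified circRNAs to ‘Ant’. Its counts of differentially expressed circRNAs run the other way, with more lower than higher in the anther, which matches the columns as labelled. The statements of the study conflict, and an exchange of the columns would turn round every contrast of circles between ‘Ant’ and ‘Mix’ below. In ‘Ant’ 64 exonic circRNAs shared 302 junction reads, with a median of 3 reads, and 23 of them (35.9%, 95% Wilson interval 25.3 to 48.2%) had a single read. In ‘Mix’ 103 exonic circRNAs shared 180 junction reads, with a median of 1, and 60 (58.3%, 48.6 to 67.3%) had a single read. One read was worth 17.5 SRPBM (junction reads scaled to a library total) in ‘Ant’ and 13.2 SRPBM in ‘Mix’, so a count of 0 allows up to 3 reads, which is 52.5 SRPBM in ‘Ant’ and 39.6 SRPBM in ‘Mix’. All intervals treat circRNAs, hosts or reads as independent draws and cover counting error only, and PCR reads are not independent molecules. Intervals of medians are 95% binomial order-statistic intervals. No interval allows for the number of quantities compared, and overlap or its absence is not a test.

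The organ labels were checked on the linear RNA, a separate table, so the check does not cover the columns of the circRNA table. All 4 polcalcin genes, which encode pollen calcium-binding proteins, had FPKM from 97.3 to 300 in ‘Ant’ and from 0 to 0.132 in ‘Mix’, with 3 of them at 0 in ‘Mix’. The 24 genes of chlorophyll a-b binding proteins summed to FPKM 21.3 in ‘Ant’ and 10374 in ‘Mix’, and the 5 RuBisCO small chain genes to 5.32 in ‘Ant’ and 8746 in ‘Mix’. The 18 oleosin genes summed to FPKM 4853 in ‘Ant’ and 0.268 in ‘Mix’. Of these, 17 were higher in ‘Ant’ and 12 reached FPKM 1 there. Their median in ‘Ant’ was 8.63, and the highest gene had 2910 of the sum. One 500 kb window of chromosome A06 took 2.07% of the estimated counts in ‘Ant’ and 56.2% in ‘Mix’. It held 0 of the exonic circRNAs, but FPKM in ‘Mix’ is relative to a total that includes it.

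The study designed primers for 7 of the exonic circRNAs, and it ran qRT-PCR on 7 differentially expressed circRNAs in 3 biological replicates. It reports their patterns as concordant with the sequencing, and the qRT-PCR values were not examined here. Primer pairs of 3 of the 7 are shown because these circles mark extremes described below. circRNA160 had the most reads among the 7, circRNA105 the host with the highest level, and circRNA25 the most exons among the 7. The sequences are DNA oligos printed from the 5′ end, with no part in capitals, and their place relative to the junction was not determined.
circRNA160 forward: ctaactctctctgccattgctca
circRNA160 reverse: gcagcgtcgttgtagttcctta
circRNA105 forward: aaccgaaaacaagttggctg
circRNA105 reverse: ggcgaagagggtaatctactgac
circRNA25 forward: cgggtagatttgataggcataa
circRNA25 reverse: atcatcacaaccctttacatcct
Their circles lie on Brassica rapa v3.0 at A05, 3301304 to 3302425 (circRNA160), A08, 16494599 to 16494898 (circRNA105), and A10, 9478989 to 9480059 (circRNA25).

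Most circles were small in both libraries. In ‘Ant’ 22 circRNAs had 1 exon, 20 had 2, 13 had 3, 7 had 4, and the remaining ones had 5 and 7. In ‘Mix’ 29 had 1 exon, 34 had 2, 18 had 3, 14 had 4, 3 had 5, 2 had 6, 2 had 7 and 1 had 9. The median was 2 exons in ‘Ant’ (2 to 2) and 2 in ‘Mix’ (2 to 2). Single-exon circles made up 34.4% of those in ‘Ant’ (23.9 to 46.6%) and 28.2% of those in ‘Mix’ (20.4 to 37.5%), and circles of 4 or more exons 14.1% in ‘Ant’ (7.58 to 24.6%) and 21.4% in ‘Mix’ (14.5 to 30.2%). These intervals overlap, and a difference in exon count was not tested.

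**Figure D1:**
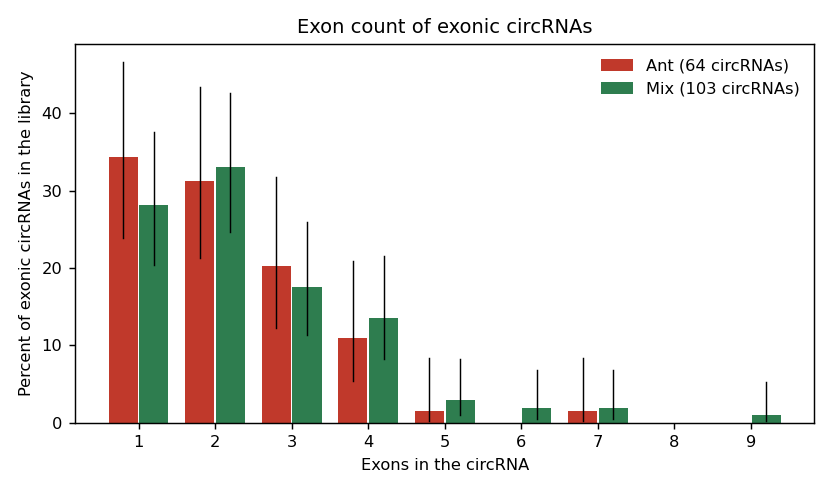
Percent of the exonic circRNAs of each library (y axis) by number of exons (x axis), with ‘Ant’ (64 circRNAs) left and ‘Mix’ (103 circRNAs) right in each pair. Lines are 95% Wilson intervals. Circles of 1 and 2 exons lead in both libraries, and the circle with the most exons, 9, was in ‘Mix’.

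A single circle carried much of the read total of ‘Ant’. Single-exon circles held 181 of the 302 junction reads in ‘Ant’ (59.9%) and 57 of the 180 in ‘Mix’ (31.7%). The single-exon circRNA114 alone had 115 reads in ‘Ant’, and without it the share in ‘Ant’ was 35.3% (28.8 to 42.4%). circRNA114 (A09, 41289653 to 41290063) is 1 exon of the 10 exons of BraA09g058100.3C, described as U-box domain-containing protein 52-like, of a family of plant proteins in which a U-box, the ubiquitin ligase domain, is often joined to a kinase domain. Its host had FPKM 15.3 in ‘Ant’ and was listed at 0 in ‘Mix’.

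The circle with the most exons was circRNA30 (9 exons, 1 read in ‘Mix’), which lay in BraA10g015060.3C, the gene of DNA ligase 4, which seals DNA ends in non-homologous end joining. Circles of 7 exons were circRNA127 (2 reads in ‘Ant’, host BraA03g028080.3C, uncharacterized), circRNA33 (2 reads in ‘Mix’, host BraA02g006780.3C, EXPORTIN 1A, a nuclear export receptor) and circRNA88 (4 reads in ‘Mix’, host BraA04g007650.3C, a tricorner-like protein kinase). circRNA25 and circRNA89 followed with 6 exons and 1 read in ‘Mix’ each. Across circRNAs, the exon count went with the exon number of the host, with a Spearman rho of 0.42 over 60 circRNAs in ‘Ant’ and 0.57 over 100 in ‘Mix’; circRNAs of a library share its depth, and the coefficients are descriptions. A circle took a median of 15.8% of its host's exons in ‘Ant’ (12.5 to 23.1%) and 20% in ‘Mix’ (17.6 to 22.2%), with ranges of 2.44 to 60% in ‘Ant’ and 3.45 to 62.5% in ‘Mix’.

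Genomic span, the distance between the ends of the circle with its introns included, had a median of 411 nt in ‘Ant’ (338 to 521) and 497 nt in ‘Mix’ (456 to 632). It ran from 161 to 2221 nt in ‘Ant’ and from 109 to 1899 nt in ‘Mix’. Spans of 1 kb or more were found for 6 of the 64 circRNAs in ‘Ant’ (9.38%, 4.37 to 19.0%) and 18 of the 103 in ‘Mix’ (17.5%, 11.3 to 25.9%). The intervals of the medians and of the shares overlap. Among circles with the same number of exons, those of 1 exon had a median span of 239 nt in ‘Ant’ (210 to 282) and 246 nt in ‘Mix’ (182 to 356), and those of 2 exons 391 nt in ‘Ant’ (346 to 447) and 461 nt in ‘Mix’ (370 to 565). Circles of 3 exons had a median of 549 nt in ‘Ant’ (513 to 607, 13 circles) and 751 nt in ‘Mix’ (585 to 955, 18 circles), and those of 4 or more 754 nt in ‘Ant’ (690 to 1404, 9 circles) and 1089 nt in ‘Mix’ (920 to 1283, 22 circles). Circles of ‘Ant’ thus had the shorter median at each exon count, by amounts within the overlap of the intervals.

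**Figure D2:**
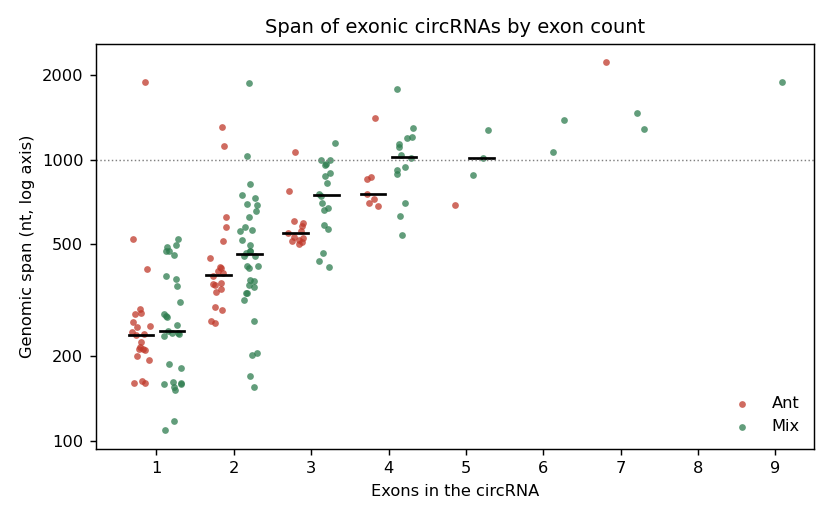
Genomic span (nt, log axis) of each exonic circRNA by its number of exons, ‘Ant’ left and ‘Mix’ right. Each point is a circRNA with a read in that library, black bars are medians of groups of at least 3 circRNAs, and the dotted line marks 1000 nt. One single-exon circle of ‘Ant’ spanned 1888 nt, while every single-exon circle of ‘Mix’ spanned at most 521 nt.

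The 5 longest circles did not follow exon count closely. circRNA127 spanned 2221 nt with 7 exons (A03, 2 reads in ‘Ant’), and circRNA30 spanned 1899 nt with 9 exons (A10, 1 read in ‘Mix’). circRNA143 spanned 1888 nt with a single exon (A06, 5 reads in ‘Ant’); its host BraA06g008550.3C is described as CROWDED NUCLEI 2, a lamina-like protein of the plant nuclear periphery. circRNA18 spanned 1875 nt with 2 exons (A09, 1 read in ‘Mix’), and its host encodes BEL1-like homeodomain protein 4. circRNA77 spanned 1783 nt with 4 exons and had reads in ‘Mix’ only. Over all circles, exon count and span had a Spearman rho of 0.79 in ‘Ant’ (64 circRNAs) and 0.81 in ‘Mix’ (103 circRNAs).

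The exons that closed into single-exon circles were in most cases longer than the mean of the other exons of their genes. Their median length was 240 nt in ‘Ant’ (211 to 283, 22 circles) and 247 nt in ‘Mix’ (183 to 357, 29 circles). The mean of the other exons of the same gene model had a median of 170 nt for the hosts in ‘Ant’ (155 to 220) and 201 nt for those in ‘Mix’ (155 to 285). The circularized exon was the longer one in 18 of 21 circles of ‘Ant’ (85.7%, 65.4 to 95.02%) and 19 of 29 of ‘Mix’ (65.5%, 47.3 to 80.1%). The gene models hold coding exons only, as every 1 of the 34213 reference lengths is a multiple of 3. A length that is a multiple of 3 keeps the reading frame around the circle. It was found for 11 of the 22 single-exon circles of ‘Ant’ (50%, 30.7 to 69.3%) and 14 of the 29 of ‘Mix’ (48.3%, 31.4 to 65.6%). The share among other exons was not determined.

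Every exonic circle had an intron on both sides, and the upstream introns were shorter in ‘Ant’ than in ‘Mix’. The upstream intron, on the 5′ side of the circle, had a median of 83 nt in ‘Ant’ (79 to 126) and 183 nt in ‘Mix’ (148 to 232), and these intervals do not overlap. The downstream intron had a median of 111 nt in ‘Ant’ (91 to 142) and 138 nt in ‘Mix’ (110 to 174), and these intervals overlap. Upstream introns of at most 100 nt flanked 38 of 64 circles in ‘Ant’ (59.4%, 47.1 to 70.5%) and 32 of 103 in ‘Mix’ (31.1%, 22.9 to 40.6%). Both introns were that short for 24 circles of ‘Ant’ (37.5%, 26.7 to 49.7%) and 23 of ‘Mix’ (22.3%, 15.4 to 31.3%). The upstream intron was the longer of the pair in 25 of 64 circles of ‘Ant’ (39.1%, 28.1 to 51.3%) and 60 of 103 of ‘Mix’ (58.3%, 48.6 to 67.3%). With at least 2 junction reads the upstream median was 94 nt in ‘Ant’ (41 circles) and 182 nt in ‘Mix’ (43 circles), a filter added after the values were seen.

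**Figure D3:**
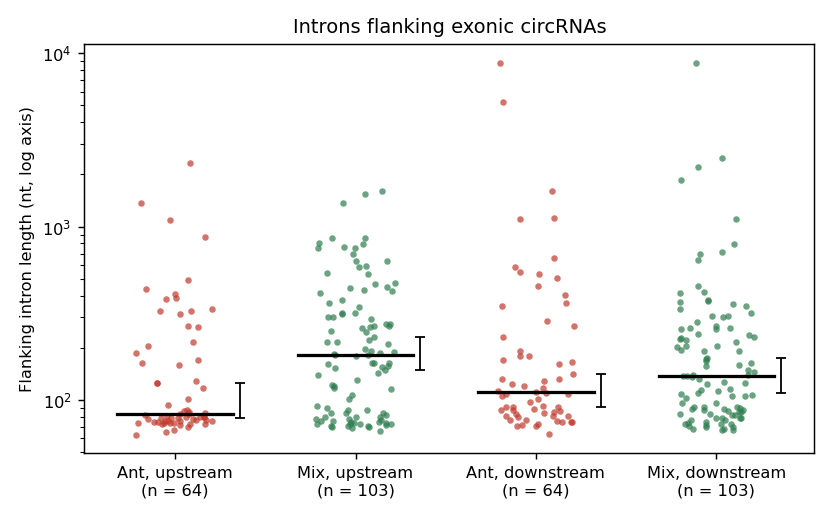
Length (nt, log axis) of the intron upstream and downstream of each exonic circRNA, ‘Ant’ left and ‘Mix’ right on each side. Points are circRNAs, thick bars are medians, and the bars beside them are 95% order-statistic intervals. The upstream median of ‘Ant’ (83 nt) lies below that of ‘Mix’ (183 nt), and both libraries hold many introns under 100 nt.

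Set against the other introns of the same gene, the flanking introns were not uniformly long. The mean of the 2 flanking introns exceeded the mean of the other introns of the gene in 23 of 58 circles of ‘Ant’ (39.7%, 28.1 to 52.5%) and in 56 of 98 circles of ‘Mix’ (57.1%, 47.3 to 66.5%). Those other introns had a median of 124 nt for the hosts in ‘Ant’ (120 to 146) and 137 nt for those in ‘Mix’ (127 to 158). The longest flanking intron, of 8838 nt, lay downstream of circRNA23, one of the few circles with reads in both libraries. circRNA119 (2 reads in ‘Ant’, host BraA10g032740.3C, a BTB/POZ protein) followed with 5244 nt, and circRNA127 had the longest upstream intron, of 2332 nt.

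Circles lay across the whole of their genes. The midpoint of the circle was at a median of 58.8% of the gene model from its 5′ end in ‘Ant’ (48.3 to 68.3%) and at 49.7% in ‘Mix’ (42.6 to 60.5%). It was nearer to the 5′ end for 22 of 60 circles of ‘Ant’ (36.7%, 25.6 to 49.3%) and 51 of 100 of ‘Mix’ (51%, 41.3 to 60.6%). The plus strand held 28 of the 64 circles of ‘Ant’ (43.8%) and 60 of the 103 of ‘Mix’ (58.3%). All 157 circles whose host had a reference transcript lay inside it and on its strand.

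Every chromosome gave circles in both libraries. In ‘Ant’ A01 led with 9 circRNAs (14.1%, 7.58 to 24.6%), where 9.98% of the genes with FPKM of at least 1 in that library lay, and A02 had the fewest with 4. In ‘Mix’ A03 led with 18 (17.5%, 11.3 to 25.9%), beside 14.7% of its expressed genes, followed by A09 with 17 and A06 with 14. A07 had the fewest in ‘Mix’, with 4 circRNAs (3.88%, 1.52 to 9.56%) beside 9.68% of the expressed genes, while ‘Ant’ had 6 there (9.38%, 4.37 to 19.0%) beside 9.37%. Per 1000 expressed genes the number of circles ran from 1.95 on A02 to 4.10 on A01 in ‘Ant’, and from 2.20 on A07 to 8.07 on A04 in ‘Mix’.

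Only 3 circles had reads in both libraries. circRNA62 (7 reads in ‘Ant’ and 5 in ‘Mix’) is 1 exon of BraA01g016250.3C, an RS40-like serine/arginine-rich splicing factor of the kind that binds exons and directs splice site choice. circRNA102 (5 reads in ‘Ant’ and 6 in ‘Mix’) holds 4 exons of BraA05g033960.3C, beta-glucosidase 9-like, an enzyme family that cleaves glucosides. circRNA23 (4 reads in ‘Ant’ and 6 in ‘Mix’) holds 2 exons of the uncharacterized BraA10g001330.3C. Of the 4 circles with 5 or more reads in ‘Mix’, the only one outside these was circRNA99 (8 reads, 1 exon), in BraA05g018360.3C, a jacalin-related lectin of the carbohydrate-binding kind with an upstream intron of 1598 nt.

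In ‘Ant’ 13 circles had 5 or more reads. Beside circRNA114, circRNA62 and circRNA102 they were circRNA118 (15 reads, 1 exon, Mediator subunit 26b, of the complex that links transcription factors to RNA polymerase II), circRNA160 (8 reads, 2 exons, ABC transporter B family member 6), circRNA146 (7 reads, 2 exons, alpha-glucan phosphorylase 1, which breaks down starch), circRNA134 (6 reads, 3 exons, transcription factor bHLH68-like), circRNA139 (6 reads, 1 exon, ALWAYS EARLY 2-like) and circRNA141 (6 reads, 4 exons, a host placed in ribosome biogenesis). The last 4 had 5 reads each: circRNA117 (3 exons, nucleotide excision repair), circRNA125 (4 exons, E2FB-like, a cell cycle transcription factor in Arabidopsis), circRNA143 and circRNA151 (2 exons, the chloroplast L-ascorbate peroxidase T, which removes hydrogen peroxide). Of the 64 circles of ‘Ant’, 61 had no read in ‘Mix’, these 10 and circRNA114 among them.

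Almost every host gave a single circle. Of the 161 hosts, 3 gave 2. In BraA01g013250.3C, a FAM10 family co-chaperone, circRNA135 (1 exon, span 161 nt) and circRNA136 (2 exons, span 411 nt) shared their start and had 1 read each in ‘Ant’. In BraA04g008640.3C, the large subunit of 3-isopropylmalate dehydratase in leucine synthesis, circRNA155 (2 exons, 2 reads) was found in ‘Ant’ and circRNA90 (1 exon, 2 reads) in ‘Mix’, again with a shared start. In BraA04g007110.3C, the acetyltransferase of the pyruvate dehydrogenase complex, circRNA153 (3 exons, 4 reads) in ‘Ant’ and circRNA87 (4 exons, 1 read) in ‘Mix’ did not overlap. Counting both kinds, 5 hosts were common to the libraries, 7.94% of the 63 hosts in ‘Ant’ and 4.85% of the 103 in ‘Mix’.

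Hosts were genes of many exons. Their gene models had a median of 12 exons in ‘Ant’ (9 to 14, 59 hosts) and 10 in ‘Mix’ (8 to 13, 100 hosts). Reference genes with at least 2 exons and FPKM of at least 1 in the same library had a median of 6 in ‘Ant’ and 5 in ‘Mix’. A circle with 2 flanking introns needs at least 3 exons, and among reference genes with that number the median was 6 in both libraries. Hosts with 20 or more exons made up 27.1% in ‘Ant’ (17.4 to 39.6%) and 22% in ‘Mix’ (15.0 to 31.1%), against 3.74% and 3.60% of the reference genes of at least 2 exons. Host coding length had a median of 2016 nt in ‘Ant’ (1539 to 2412), against 1170 nt for reference genes there, and of 1731 nt in ‘Mix’ (1503 to 2001), against 1173 nt. The mean intron of hosts had a median of 138 nt in ‘Ant’ (123 to 175), against 140 nt for reference genes, and of 165 nt in ‘Mix’ (141 to 189), against 142 nt.

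**Figure D4:**
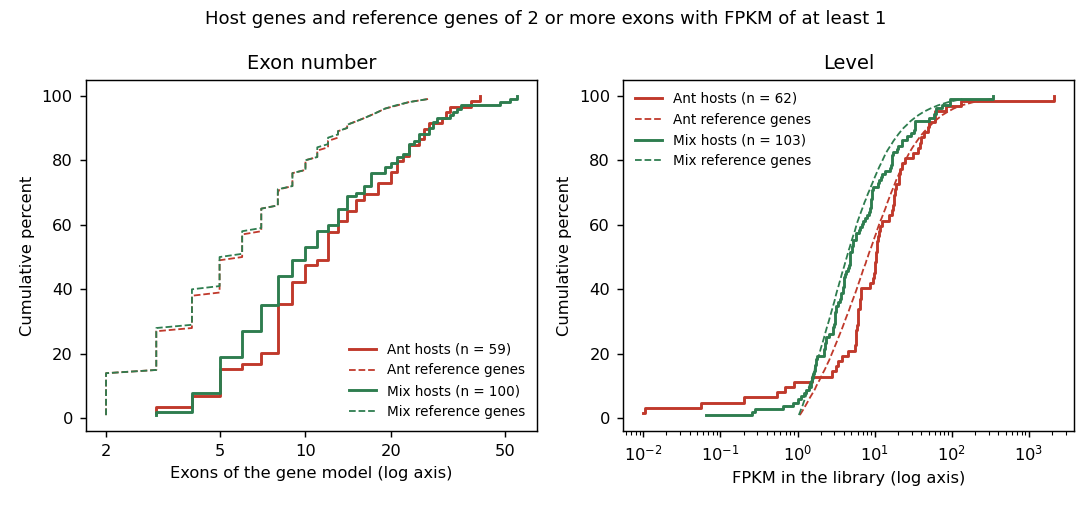
Cumulative percent (y axis) of host genes (solid) and of reference genes of at least 2 exons with FPKM of at least 1 (dashed, percentiles 1 to 99) by exon number (left panel, log axis) and by FPKM in the library (right panel, log axis). ‘Ant’ is red and ‘Mix’ green, and a host listed at 0 is drawn at 0.01. The exon curves of hosts lie to the right of those of reference genes in both libraries, while the FPKM curves lie close together.

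Host level was close to that of other genes with FPKM of at least 1. Linear RNA of the hosts (FPKM summed over the reference transcript and its assembled isoforms) had a median of 10.4 in ‘Ant’ (6.53 to 16.5, 62 hosts), against 8.13 for reference genes in ‘Ant’, and of 4.82 in ‘Mix’ (3.93 to 6.92, 103 hosts), against 4.35 for reference genes in ‘Mix’. Hosts above the reference median were 37 of 62 in ‘Ant’ (59.7%, 47.3 to 71.0%) and 56 of 103 in ‘Mix’ (54.4%, 44.8 to 63.7%). FPKM of at least 1 was found for 55 of the 62 hosts in ‘Ant’ and 98 of the 103 in ‘Mix’. With the reference transcript alone, the shares above the median of reference genes were 33.9% in ‘Ant’ and 34% in ‘Mix’, and with reference genes of any level they were 82.3% in ‘Ant’ and 90.3% in ‘Mix’. The comparison therefore depends on how isoforms are added up and on the minimum of FPKM 1, which was set for reference genes but not for hosts. Junction reads did not follow host level, with a Spearman rho of 0.022 over 63 circRNAs in ‘Ant’ and 0.037 over 103 in ‘Mix’.

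The extremes show how loosely the measures were tied. The host with the highest level in ‘Ant’, BraA08g021800.3C (FPKM 2102 in ‘Ant’ and 0.013 in ‘Mix’), gave circRNA105 with only 2 reads. It was followed in ‘Ant’ by BraA07g015970.3C, a GDSL esterase/lipase (FPKM 131 in ‘Ant’, listed at 0 in ‘Mix’, circRNA147 with 3 reads), and BraA03g047170.3C, heat shock 70 kDa protein 17-like (84.2 in ‘Ant’ and 6.43 in ‘Mix’, circRNA130 with 1 read). At the low end, BraA09g059250.3C (circRNA115, 3 reads) was listed at FPKM 0 in ‘Ant’, BraA01g038270.3C (circRNA138, 1 read), the ABC transporter G26 that in Arabidopsis serves pollen wall formation, had 0.011, and BraA05g027140.3C (circRNA161, 2 reads) had 0.056. In ‘Mix’ the highest hosts were the uncharacterized BraA06g032740.3C (FPKM 73.0 in ‘Ant’ and 339 in ‘Mix’), a NADPH-cytochrome P450 reductase, BraA03g055590.3C (59.8 and 95.5), and elongation factor 1-gamma, BraA06g006530.3C (41.5 and 94.2), with 1, 1 and 2 reads in ‘Mix’. The lowest in ‘Mix’ were BraA02g008390.3C (0.065), BraA03g033880.3C (0.257) and BraA01g021040.3C (0.277), each with 1 read.

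Hosts of anther circles were mostly higher in ‘Ant’, while hosts of ‘Mix’ circles had a median ratio near that of all genes. With FPKM rescaled to the same sum the median of hosts in ‘Ant’ stayed on the ‘Ant’ side (0.79), while the medians of hosts in ‘Mix’ (-0.37) and of all genes (-0.13) both changed sign. The log2 ratio of host FPKM, log2((FPKM in ‘Ant’ + 1)/(FPKM in ‘Mix’ + 1)), which understates the change of low genes, was above 2 for 26 of the 56 hosts in ‘Ant’ that reached FPKM 1 in either library (46.4%), beside 23.9% of all 25312 such genes. It was below -2 for 1 of the 56, beside 7.89% of all genes. For hosts in ‘Mix’ it was above 2 for 16 of 103 (15.5%) and below -2 for 7 (6.80%), beside the same 23.9% and 7.89% of all genes. The median was 1.86 for hosts in ‘Ant’ (1.12 to 2.22), 0.68 for hosts in ‘Mix’ (0.25 to 1.04) and 0.81 for all genes. The scaling matters: genes that reached FPKM 1 in both libraries had a median of 0.60, and after centring on it 14 of the 56 hosts in ‘Ant’ were above 2 (25%) and 2 below -2, beside 16.1% and 13.05% of all genes. Centring left 5 of the 103 hosts in ‘Mix’ above 2 and 15 below -2 (14.6%), and the share of higher calls among hosts in ‘Mix’ fell to 25%, against 69.6% as deposited, while that share among all genes fell to 55.3%, against 75.2%. Each circle was counted from the same library as its host, so the sets are not independent of these levels.

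**Figure D5:**
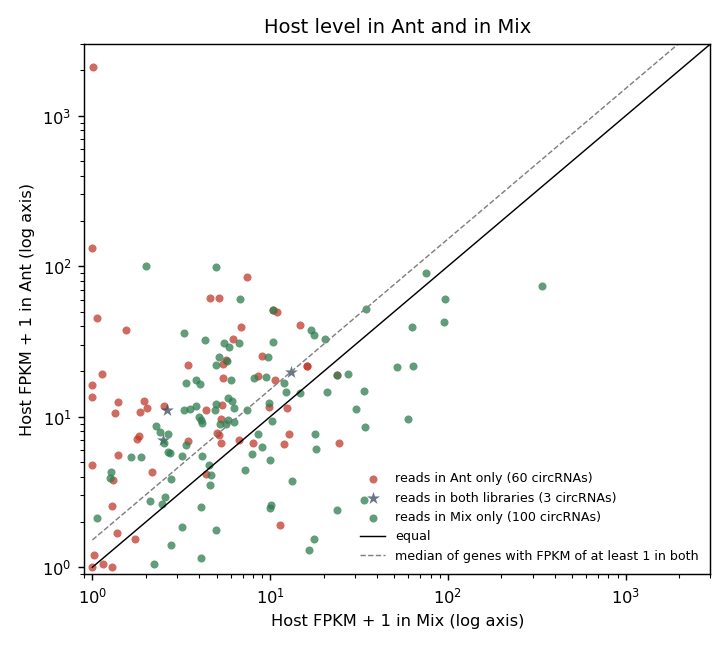
Host FPKM + 1 in ‘Ant’ (y axis, log) against ‘Mix’ (x axis, log) for the 163 exonic circRNAs whose host has a level, by the library that held their reads. The solid line marks equal levels and the dashed line the median log2 ratio of 0.60 of genes that reached FPKM 1 in both libraries. Many red points (‘Ant’ only) lie far above the dashed line, and the green points (‘Mix’ only) lie on both sides of it.

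Absence of a circle was not absence of host RNA. Of the 57 hosts with circles in ‘Ant’ only, 34 (59.6%, 46.7 to 71.4%) had FPKM of at least 1 in ‘Mix’ as well, and 5 were listed at 0 there, while 10 (17.5%, 9.82 to 29.4%) had the higher FPKM in ‘Mix’. Among all genes with FPKM of at least 1 in ‘Ant’, 70.2% reached it in ‘Mix’. The 57 hosts were not held to that minimum in ‘Ant’, so the shares of hosts and genes are not on the same footing. Of hosts with circles in ‘Ant’ only, 51 reached FPKM 1 in either library. Of these 51, 7 (13.7%) were higher in ‘Mix’, beside 32.9% of all 25312 such genes. With FPKM rescaled to the same sum, 17 of the 51 (33.3%) were higher in ‘Mix’, beside 53.5% of all genes. Of the 98 hosts with circles in ‘Mix’ only, 91 (92.9%, 86.0 to 96.5%) had FPKM of at least 1 in ‘Ant’, beside 82.3% of all genes with that level in ‘Mix’. Again the hosts were not held to that level in ‘Mix’. The higher FPKM was in ‘Ant’ for 62 of these 98 (63.3%, 53.4 to 72.1%), beside 67.1% of all 25312 genes. With FPKM rescaled to the same sum it was in ‘Ant’ for 37 of the 98 (37.8%), beside 46.5% of all genes, so this direction depends on the scaling. A circle missing from a library was not detected there, which at the read numbers of most circles does not show absence, and a count of 0 allows up to 3 reads.

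Hosts were sorted into 14 overlapping functions by description and KEGG pathway. The lists rest on keywords and can miss a host. The share of each list was set beside its share of the genes with FPKM of at least 1 in that library (20942 in ‘Ant’, 17931 in ‘Mix’). These genes were not limited in exon number, so they include genes that cannot give a circle with 2 flanking introns. RNA processing and transport held 9 of the 63 hosts in ‘Ant’ (14.3%, 7.70 to 24.97%), beside 7.93% of genes, and 14 of the 103 in ‘Mix’ (13.6%, 8.27 to 21.5%), beside 7.60%. circRNA62 and circRNA141 had the most reads, followed by circRNA88, a kinase listed here by pathway, and by circRNA106, whose host is a phosphofructokinase that KEGG also places in RNA degradation. A second RS40 gene, BraA08g020050.3C, gave the single-exon circRNA104 (3 reads in ‘Ant’), symplekin, a scaffold of mRNA 3′ end formation, gave circRNA32 (3 reads in ‘Mix’, 5 exons), and coilin, of Cajal bodies, gave circRNA144 (4 reads in ‘Ant’). Both RS40 genes are close copies by description, so reads at shared sequence could be split between them.

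Hosts described as ribosomal or translation factors, or in the KEGG ribosome pathway, numbered 0 of 63 in ‘Ant’, which allows a share of up to 4.76%, the value of 3 hosts, beside 4.06% of genes, and 9 of 103 in ‘Mix’ (8.74%, 4.67 to 15.8%), beside 4.44%. The 4.76% limit and the ‘Mix’ interval overlap. The host of circRNA141 (6 reads in ‘Ant’), placed in ribosome biogenesis, was counted under RNA processing and transport and not in this list. The ‘Mix’ circles were circRNA47 (3 reads), circRNA19 (peptide chain release factor ERF3A-like), circRNA22 and circRNA71 (elongation factor 1-gamma) with 2 reads each, and 5 others of 1 or 2 reads. In chloroplast and photosynthesis there were 4 hosts in ‘Ant’ (6.35%, 2.50 to 15.2%), beside 7.13% of genes, and 13 in ‘Mix’ (12.6%, 7.53 to 20.4%), beside 8.79%. Named by reads, they were circRNA151 (5 reads in ‘Ant’), circRNA51 (4 reads in ‘Mix’, a cyclic nucleotide-gated channel), circRNA106 (4 reads in ‘Ant’) and circRNA16 (3 reads in ‘Mix’, ketol-acid reductoisomerase of branched-chain amino acid synthesis). circRNA95 (2 reads in ‘Mix’) lay in RuBisCO activase, which keeps the carbon-fixing enzyme active.

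Aminoacyl-tRNA biosynthesis held 2 hosts in ‘Ant’ (3.17%) and 3 in ‘Mix’ (2.91%), beside 0.669% and 0.792% of genes, on counts too small for a comparison. Of these, circRNA156 (1 read in ‘Ant’) lay in cysteine-tRNA ligase and circRNA80 (3 reads in ‘Mix’, 4 exons) in isoleucine-tRNA ligase, while the hosts of circRNA70 and circRNA71 are described as a sucrose nonfermenting 4-like protein and elongation factor 1-gamma. Amino acid synthesis held 3 hosts in ‘Ant’ (4.76%) and 4 in ‘Mix’ (3.88%), beside 2.10% and 2.37% of genes, with circRNA143, circRNA106, circRNA16 and the dehydratase pair circRNA155 and circRNA90; the description of the host of circRNA143, CROWDED NUCLEI 2, does not name an enzyme of that pathway.

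Ubiquitin and proteasome functions held 4 hosts in ‘Ant’ (6.35%, 2.50 to 15.2%), beside 5.32% of genes, and 6 in ‘Mix’ (5.83%, 2.70 to 12.1%), beside 5.15%. They included circRNA114, circRNA159 (4 reads in ‘Ant’, an F-box protein, a substrate adaptor of ubiquitin ligases), circRNA94 (3 reads in ‘Mix’, HOS1, an E3 ligase known from cold signalling in Arabidopsis) and circRNA101 (3 reads in ‘Mix’). Transcription and chromatin held 6 in ‘Ant’ (9.52%, 4.44 to 19.3%), beside 5.62%, and 7 in ‘Mix’ (6.80%, 3.33 to 13.4%), beside 5.76%, led by circRNA118, circRNA134, circRNA125 and circRNA162. Both Mediator circles, circRNA118 (15 reads) and circRNA162 (4 reads, subunit 26a), were single exons with reads in ‘Ant’ only. Protein kinases and phosphatases held 2 in ‘Ant’ (3.17%) and 4 in ‘Mix’ (3.88%), beside 3.86% and 4.53% of genes, with circRNA88, circRNA3, circRNA13 and circRNA69 (TOR, the growth-controlling kinase).

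Transporters and channels held 4 hosts in ‘Ant’ (6.35%, 2.50 to 15.2%), beside 2.44% of genes, and 3 in ‘Mix’ (2.91%, 0.995 to 8.22%), beside 2.34%. In ‘Ant’ they were led by circRNA160, and included circRNA138 and circRNA157, both in ABC transporters. In ‘Mix’ the channels of circRNA35 and circRNA51, 4 reads each and 1 exon each, admit cations such as calcium. The list also held circRNA40 in an ABC transporter of the F family. It did not hold circRNA20 (2 reads in ‘Mix’), whose host is described as a calcium-transporting ATPase, so the count in ‘Mix’ is low. The plant-pathogen interaction list held 3 hosts in ‘Ant’ (4.76%) and 4 in ‘Mix’ (3.88%), beside 3.81% and 4.36% of genes. Its members with the most reads were circRNA114, circRNA35, circRNA51 and circRNA54 (4 reads in ‘Mix’, RIN4, an immune regulator targeted by bacterial effectors in Arabidopsis).

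Carbon, lipid and cell wall metabolism held 6 hosts in ‘Ant’ (9.52%, 4.44 to 19.3%), beside 8.06% of genes, and 13 in ‘Mix’ (12.6%, 7.53 to 20.4%), beside 8.36%. Of the circles listed, circRNA102, circRNA106 and circRNA153 led it, followed by circRNA6 (3 reads in ‘Mix’, glycerol-3-phosphate acyltransferase 8, of cutin synthesis in Arabidopsis). circRNA60 (3 reads in ‘Mix’) lay in cellulose synthase A1. The list did not hold circRNA146, in alpha-glucan phosphorylase 1, which had more reads in ‘Ant’ than any listed circle. It also did not hold circRNA5 of ‘Mix’, in a 6-phosphofructo-2-kinase, so the counts of both libraries are low. DNA repair and replication held 5 in ‘Ant’ (7.94%, 3.44 to 17.3%), beside 2.05%, and 3 in ‘Mix’ (2.91%, 0.995 to 8.22%), beside 1.595%. Of these 5, only circRNA117 had more than 1 read, and myosin-17, myosin-4-like and a pair of At1g09600-like kinases are in the list by pathway alone. Trafficking and cytoskeleton held 3 hosts in ‘Ant’ (4.76%) and 3 in ‘Mix’ (2.91%), beside 4.17% and 3.70% of genes, among them circRNA122 (kinesin KIN-4C) and circRNA120 (myosin-17) in ‘Ant’ and circRNA68 (AUGMIN subunit 4, of microtubule nucleation) in ‘Mix’. Hosts without a characterized product were 15 in ‘Ant’ (23.8%, 15.0 to 35.6%), beside 28.3% of genes, and 25 in ‘Mix’ (24.3%, 17.0 to 33.4%), beside 26.4%. By GO component, nuclear products made up 30 of the hosts in ‘Ant’ (47.6%, 35.8 to 59.7%), beside 37.4% of genes. In ‘Mix’ they made up 37 (35.9%, 27.3 to 45.5%), beside 35.9%. Cytosol held 20.6% in ‘Ant’ and 21.4% in ‘Mix’, beside 13.3% and 14.6% of genes. Plasma membrane held 20.6% and 21.4%, beside 16.6% and 18.3%. Chloroplast held 15.9% and 16.5%, beside 16.5% and 19.3%. Mitochondrion held 7.94% and 4.85%, beside 10.6% and 10.7%.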

How the data were processed

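The authors trimmed reads with Cutadapt and mapped them to Brassica rapa v3.0; the processing notes name HISAT2, StringTie and TopHat. circRNAs were found in unmapped reads by tophat-fusion and CIRCexplorer. The deposited circRNA counts are back-spliced junction reads, and the deposited SRPBM signal scales them to a library total. The deposited FPKM of linear transcripts is relative to a library total, and the deposited estimated counts (216371346 in ‘Ant’, 190816341 in ‘Mix’) were used only for the A06 window. Exon number columns were used as deposited, per the file headers. Positions and flanking introns were read from the circRNA table and hosts matched by gene name: 157 of 164 circRNAs had a reference gene model, 163 a level. Python 3.11.15, pandas 2.3.3 and SciPy 1.17.1 gave Wilson and order-statistic intervals, tested on simulated data. Names follow a rule: 5 or more reads, reads in both libraries, the 5 longest, the 5 with most exons, hosts of 2 circRNAs, the 4 leading hosts per list and the 3 highest and lowest hosts. Members and lists were chosen with earlier results of these data known. Alternatives covered read minimum, isoforms, pseudocount, filters and scaling.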

Additional observations from a re-analysis of the deposited data

How the results depend on the processing

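No paired analysis was possible because each group held 1 library, which also left no replicate to leave out. Over 34 results, 97 of 140 alternatives stayed within the interval or within 1.5 times the count; the causes of the others were not tested. With each junction read counted once, the single-exon share was 59.9% in ‘Ant’. With at least 2 reads, 41 hosts were left in ‘Ant’ and 43 in ‘Mix’. With at least 3 reads, 17 circRNAs of ‘Mix’ had a median span of 704 nt and 29.4% reached 1 kb. With the reference transcript alone, the median host FPKM was 3.30 in ‘Ant’ and 2.22 in ‘Mix’, and 33.9% and 34% of hosts were above the median of reference genes. Without a filter on low values these shares were 82.3% and 90.3%, and the median exon number of reference genes in ‘Ant’ was 5.

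The log2 ratio of hosts moved most. For hosts in ‘Ant’ the median was 2.27 and 2.30 with pseudocounts of 0.1 and 0.01, with 2 of 56 hosts below -2 in each. It was 0.79 with FPKM rescaled to the same sum and 0.84 when that sum left out the A06 window, with 11 hosts above 2 (19.6%) and 2 below -2 (3.57%) in both. All genes then had a median of -0.13 and -0.086, with 11.7% and 12.2% above 2 and 12.9% and 12.6% below -2. Centring gave 14 of 56 above 2 and 2 below -2, beside 16.1% and 13.05% of all genes. The reference transcript alone gave the same counts, but of 34 hosts. With at least 2 reads 0 of 38 were below -2, beside 7.89% of all genes. Shares of all genes with the reference transcript alone or with other pseudocounts are not given here. For hosts in ‘Mix’ the median was 0.076 after centring and 0.13 with the reference transcript alone, and it changed sign to -0.37 with FPKM rescaled to the same sum and to -0.31 without the window, as did the median of all genes. Hosts in ‘Mix’ above 2 were 5 of 103 after centring (4.85%, beside 16.1% of all genes), 3 under either rescaling (2.91%) and 26 with a pseudocount of 0.01. With the reference transcript alone 9 of 66 hosts in ‘Mix’ were above 2. With at least 2 reads it was 6 of 43, beside 23.9% of all genes. Hosts in ‘Mix’ below -2 were 15 of 103 after centring (14.6%, beside 13.05% of all genes), 17 under either rescaling (16.5%), and 13 and 14 with pseudocounts of 0.1 and 0.01. With at least 2 reads it was 2 of 43, beside 7.89% of all genes. Alternatives on flanking introns, on genes of 3 or more exons and without the window were added after the data were seen.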
